A study of Mus musculus with 4 samples.

Results

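The clusters described are those of IGF2BP3 eCLIP reads that lie in exons of long non-coding RNA (lncRNA) genes in the mouse testis. A cluster belonged to the set when its centre lay, on the same strand, in an exon of a gene that GENCODE M21 basic (mm10) types as lincRNA, antisense, processed transcript, sense intronic, sense overlapping, bidirectional promoter lncRNA or TEC, a class of gene models that still await experimental support. Centres that also lay in a protein-coding exon of that strand were left out. The rule took 6226 of 553588 clusters, 3725 of 337234 in replicate 1 and 2501 of 216354 in replicate 2. No fold change or P value was used to choose them.

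IGF2BP3 was immunoprecipitated from UV-crosslinked testes of wild-type C57BL/6 mice (C57BL/6J in the protocol) aged 8 weeks, and the bound RNA fragments were sequenced by enhanced crosslinking and immunoprecipitation (eCLIP-seq). Each of the 2 replicates compared an IGF2BP3 antibody IP with its own size-matched input (SMInput), a share of 2% of the lysate that saw no antibody. Every sample came from 2 testes, holding germ cells and somatic cells together, and how many mice gave them was not stated. The read totals implied by the listed ratios were 5133438 IP and 8706391 SMInput reads in replicate 1, and 4637612 IP and 16696122 SMInput reads in replicate 2.

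The tissue label was checked on the exons of marker genes, by clusters and by the SMInput reads summed over those with known reads, so that the sums are lower bounds. All 5 round spermatid markers (Prm1, Prm2, Tnp1, Tnp2, Acrv1) had clusters in both replicates, with 5125 and 9568 SMInput reads, and Prm2 was the highest of them with 1903 and 3827. The 3 spermatocyte markers held 1643 and 2523 reads (Piwil1 highest), the 3 spermatogonial markers 87 and 159 (Kit highest), and the 3 Sertoli cell markers 105 and 196 (Wt1 highest). Reads of other somatic markers were also present. The 4 Leydig cell markers held 2627 and 4212 reads, but Insl3 alone gave 2536 and 4061 of them. Cyp17a1 held 60 and 96, Hsd3b1 27 and 45, and Star 4 and 10. The peritubular markers Acta2 and Myh11 held 174 and 284. Markers of blood and immune cells (Hba-a1, Hbb-bs, Ptprc) had 5 clusters in replicate 1, most without known reads, and 0 clusters in replicate 2. In such bulk samples, fewer cells of a type and less RNA per cell cannot be told apart, and this holds for every lncRNA below.

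IGF2BP3 is a cytoplasmic RNA-binding protein with RRM and KH domains, best known for binding mRNAs, CA-rich stretches and RNA that carries N6-methyladenosine (m6A). lncRNAs are transcribed and often spliced and polyadenylated like mRNAs, but have no annotated open reading frame of a known protein. The testis transcribes more lncRNA genes than most organs, many of them in meiotic and post-meiotic germ cells, and most of these have no known function.

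A cluster was called significant at a log2 fold change of IP over SMInput of at least 2 with a −log10 P of at least 2, the thresholds of the study. In replicate 1, 333 of 3725 lncRNA-exon clusters were significant (8.94%, 95% Wilson interval 8.07 to 9.90), beside 4.92% of all clusters. In replicate 2 the count was 491 of 2501 (19.6%, 18.1 to 21.2), beside 13.2% of all clusters. The intervals cover counting error only, since clusters of 1 transcript and 1 library are not independent. Clusters in protein-coding exons gave 9.16% and 15.3%, and those in protein-coding introns 1.94% and 10.8%. The coding-exon share thus lay within the interval of the lncRNA exons in replicate 1 and below it in replicate 2, and the intron share below it in both.

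Significant clusters lay in few of the annotated lncRNA genes. Of 13369 annotated lncRNA genes, 1318 had a cluster in replicate 1 and 991 in replicate 2, with 717 in both and 1592 in either. A significant cluster was present in 151 and 248 genes, with 89 genes in both replicates and 310 in either. Per kilobase of annotated exon outside coding exons, there were 0.0154 and 0.0227 significant clusters, against 0.165 and 0.226 in protein-coding exons. That density counts silent genes as well as transcribed ones and was not adjusted for expression.

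The depth behind a typical cluster was low. Read numbers could be worked out only where −log10 P was listed between 0 and 400. The 336 and 173 clusters listed at 0, most with a negative log2 fold change, and the 41 and 60 listed at 400 have none. Among those with known reads, the median lncRNA-exon cluster held 4 IP and 2 SMInput reads in replicate 1, and 5 IP and 6 SMInput reads in replicate 2. Significant clusters had a median of 16 and 9 IP reads. Of the significant clusters with known reads, 22.2% in replicate 1 and 50.1% in replicate 2 had under 10 IP reads, and 17.5% and 17.7% rested on a single SMInput read. The fold changes of such clusters move by whole steps with each input read.

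Clusters with known and like numbers of IP reads were compared, SMInput reads not matched. The lncRNA exons stood above all clusters in the middle classes but not in the deepest, where the share depended on few genes. Since clusters with a negative log2 fold change have no known reads, these shares describe only that subset. With 20 to 49 IP reads, 49.1% of the lncRNA-exon clusters (84 of 171, interval 41.7 to 56.6) were significant in replicate 1, beside 26.0% of all clusters in that class. In replicate 2 it was 58.4% (87 of 149, interval 50.4 to 66.0) beside 30.4%. With 50 or more IP reads, a class that lacks the clusters listed at 400, it was 39.0% (55 of 141, interval 31.3 to 47.2) beside 40.5% in replicate 1, and 35.8% (43 of 120, interval 27.8 to 44.7) beside 45.0% in replicate 2, below all clusters. Malat1 gave 42 of the 141 and 51 of the 120 clusters, with 0 significant. AI507597 in replicate 1 (14 of 14) and 1700006J14Rik (8 of 8) and Gm11837 (7 of 8) in replicate 2 went the other way. Without Malat1, Gm26917, AI507597 and Gm42418, replicate 1 had 67.8% (40 of 59, 55.1 to 78.3), above all clusters. Without Malat1, Gm26917, 1700006J14Rik and Gm11837, replicate 2 had 69.2% (27 of 39, 53.6 to 81.4), also above. The genes left out led this class by number of clusters in each replicate. No genes were left out of all clusters, so these 2 comparisons are not of like sets. Coding-exon clusters with 50 or more IP reads, with no gene left out, had 42.6% and 47.4%.

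By gene type, antisense genes and lincRNAs had shares above that of all clusters, TEC genes were below it, and the bidirectional promoter and sense overlapping classes rested on 1 or 2 genes each. Bidirectional promoter lncRNAs, which start next to a coding gene and run away from it, had 24 of 115 clusters significant in replicate 1 (20.9%, 14.4 to 29.2) and 29 of 88 in replicate 2 (33.0%, 24.0 to 43.3). Antisense genes had 133 of 861 (15.4%, 13.2 to 18) and 177 of 603 (29.4%, 25.9 to 33.1). Intergenic lincRNAs had 111 of 1032 (10.8%, 9.01 to 12.8) and 170 of 777 (21.9%, 19.1 to 24.9). These 3 classes were above the share of all clusters in each replicate, but the bidirectional promoter class owed this to few genes. Cep83os gave 15 of its 24 and 14 of its 29 significant clusters, and without Cep83os 9 of 94 (9.57%, 5.12 to 17.2) and 15 of 71 (21.1%, 13.2 to 32.0) were significant. Leaving out 1110020A21Rik as well gave 4 of 88 (4.55%, 1.78 to 11.1) and 6 of 62 (9.68%, 4.51 to 19.5), which held the share of all clusters. Antisense genes without AI507597, their leading gene, gave 113 of 841 (13.4%, 11.3 to 15.9) and 164 of 590 (27.8%, 24.3 to 31.5).

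Processed transcripts had 34 of 432 (7.87%, 5.69 to 10.8) and 45 of 296 (15.2%, 11.6 to 19.7), which held the 13.2% of replicate 2 within its interval. The TEC class had 26 of 1097 (2.37%, 1.62 to 3.45) and 54 of 618 (8.74%, 6.76 to 11.2), below all clusters in both replicates. Sense intronic genes, which lie within an intron of a coding gene, had 2 of 175 (1.14%, 0.314 to 4.07) and 11 of 107 (10.3%, 5.84 to 17.5), below all clusters in replicate 1 and with their share inside the interval in replicate 2. Sense overlapping genes had 3 of 13 (23.1%, 8.18 to 50.3) and 5 of 12 (41.7%, 19.3 to 68.0), above all clusters in both replicates, but every significant one lay in AC117700.1, a gene named here after its values were seen. Without it 0 of 6 (upper limit 39.0%) and 0 of 4 (upper limit 49%) were significant.

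The position relative to coding genes separated the clusters further. Centres inside the span of a protein-coding gene on the same strand, where the reads may also come from the intron of the unspliced mRNA, were significant in 27 of 1267 cases in replicate 1 (2.13%, 1.47 to 3.08) and 62 of 730 in replicate 2 (8.49%, 6.68 to 10.7). Those shares were near the 1.94% and below the 10.8% of coding introns. Outside such spans, 306 of 2458 (12.4%, 11.2 to 13.8) and 429 of 1771 (24.2%, 22.3 to 26.3) were significant. For spliced lncRNAs outside coding spans the shares were 14% (279 of 1988) and 26.2% (369 of 1408), the highest among the 4 combinations of splicing and position in both replicates.

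Last exons held the most significant clusters. They gave 180 of 1129 in replicate 1 (15.9%, 13.9 to 18.2) and 255 of 803 in replicate 2 (31.8%, 28.6 to 35.1), that is 54.1% and 51.9% of all significant lncRNA-exon clusters. First exons gave 11.8% (59 of 500) and 20.4% (70 of 343), and internal exons 8.99% (41 of 456) and 15.2% (50 of 328). Unspliced genes gave 3.23% (53 of 1640) and 11.3% (116 of 1027). Most of their clusters, 1170 and 664, lay inside the span of a coding gene, where 2.22% and 8.43% were significant. Outside such spans unspliced genes had 5.74% (27 of 470) and 16.5% (60 of 363).

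Position along the spliced transcripts was taken as well. When each was divided into 3 stretches of equal length, the shares from 5′ to 3′ were 11.6%, 13.1% and 16.4% in replicate 1, and 22.2%, 25.6% and 29.6% in replicate 2. The intervals of the 5′ stretch (9.55 to 14 in replicate 1, 19 to 25.8 in replicate 2) and the 3′ stretch (13.6 to 19.6 and 25.5 to 34.1) overlapped in both replicates, but the 5′ share lay below the interval of the 3′ stretch in each. This held without AI507597, the gene with the most significant clusters of the 3′ stretch, where the 3′ shares were 15.3% (12.5 to 18.4) and 28.5% (24.4 to 32.9). The difference itself was not tested.

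Shares were also taken by repeat content, strand partner and chromosome. Clusters with at least 50% of their bases in soft-masked repeats were significant in 4.23% (26 of 615) and 9.78% (40 of 409), beside 9.42% and 20.5% of those with no repeat base. Clusters with some repeat bases but under 50% had 11.7% and 25.2%. Centres opposite an exon of a coding gene on the other strand gave 14.1% (23 of 163, interval 9.59 to 20.3) and 31.8% (27 of 85, 22.8 to 42.3), above the 8.70% and 19.2% of the rest. Without AI507597 they gave 9.68% (5.95 to 15.4), which held the share of the rest, and 29.3% (20.5 to 39.9). On the X chromosome, 1 of 55 (0.322 to 9.61%) and 2 of 24 (2.32 to 25.8%) clusters were significant, too few for a difference from the other chromosomes to be detectable. Chromosome 4 had 21.6% and 29.8%, and chromosome 10 had 19.3% and 37.4%, but single genes weighed heavily there. AI507597 gave 20 of the 44 significant clusters of chromosome 4 in replicate 1, and Cep83os gave 15 of the 31 of chromosome 10. Without them the shares were 13% and 23.2% on chromosome 4 and 11.4% and 29.6% on chromosome 10. Chromosome 11 had 16.4% and 30.9%. Low shares were found as well, with 2.40% and 15.1% on chromosome 1 and 1.89% and 10.4% on chromosome 3.

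The replicates were next compared cluster by cluster. In replicate 1, 162 of 333 significant lncRNA-exon clusters (48.6%, 43.3 to 54.0) overlapped a significant one of replicate 2 by at least 1 base, beside 33.0% over all significant clusters. In replicate 2 the share was 162 of 491 (33.0%, 29 to 37.3), beside 18.5%. All significant clusters include 3671 in protein-coding introns in replicate 1 and 10609 in replicate 2. The overlap of coding-exon clusters alone was not taken, so a difference from them is not shown. Over 1174 overlapping pairs of lncRNA-exon clusters, significant or not, the log2 fold changes correlated with Pearson r = 0.837 and Spearman rho = 0.784, and 1087 pairs had the same sign. For the 432 pairs with at least 10 IP reads on both sides r was 0.845 and rho 0.849, a selection which leaves out clusters with more input than IP. These values describe clusters that share libraries, not replicates, and carry no p.

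Joining touching clusters gave 108 shared sites in 60 genes, with a median width of 99.5 bases (2 to 310). Of these, 43 lay in antisense genes, 38 in lincRNAs, 14 in bidirectional promoter lncRNAs, 9 in processed transcripts, 2 in TEC and 2 in sense overlapping genes. Last exons held 63 of the sites (58.3%), first exons 19, internal exons 15 and unspliced genes 11. None lay inside the span of a coding gene on the same strand. At 87 sites the strongest cluster of each replicate had a known number of at least 10 IP reads, sites with a strongest cluster listed at 400 not counted.

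RefSeq places 6 of the 108 sites in exons of coding transcripts, in Gm11837, Zswim6 and Cct6a, although GENCODE types these genes as non-coding here. Testis-derived RIKEN clone genes carried 36 of the sites. Cep83os had 11 sites, D130017N08Rik 6 and Wbscr25 5, while 35 of the 60 genes had 1.

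Shared sites were ranked by the smaller of the replicates' highest log2 fold changes. These can come from clusters of a joined site that do not overlap each other, and a site of many clusters has more values to take the highest from. 1700104B16Rik, 4921534H16Rik and AI507597 stood at the top. 1700104B16Rik is a lincRNA of 2 exons (chr8:33730534-33731819, minus strand) that starts next to Gtf2e2, the gene of a general transcription factor subunit. All 5 of its clusters in each replicate lay in the last exon and were significant. At its site, chr8:33730558-33730778, the strongest cluster had a log2 fold change of 6.39 in replicate 1, with 248 IP reads against 5 SMInput reads. In replicate 2 the strongest cluster had 6.86, with −log10 P at the listed maximum of 400, where read numbers cannot be worked out. The strongest clusters, chr8:33730558-33730619 in replicate 1 and chr8:33730622-33730646 in replicate 2, lay side by side and shared no base. Both values were the highest of any lncRNA-exon cluster in their replicate.

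4921534H16Rik (chr9:98003420-98012175, plus strand) is an antisense gene across from Clstn2, which encodes a calsyntenin. Its last exon carried a site at chr9:98004995-98005214 with log2 fold changes of 5.46 (52 IP and 2 SMInput reads) and 5.66 (56 and 4 reads). In all, 3 of 3 clusters of replicate 1 and 8 of 10 of replicate 2 were significant in this gene.

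AI507597 (chr4:141614026-141615604, plus strand), antisense to the transmembrane protein gene Tmem82, was covered along all 3 of its exons. All 20 clusters of replicate 1 and all 13 of replicate 2 were significant, with log2 fold changes from 2.25 to 5.88 and from 3.24 to 5.37. Most lay in the last exon, 12 and 10, where they joined into a site at chr4:141615219-141615528 in which the highest −log10 P was 400 in both replicates. Its second exon had a separate site at chr4:141614579-141614630 with log2 fold changes of 4.77 (−log10 P 37.1) and 3.93 (−log10 P 51.9).

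Cep83os (chr10:94671025-94688576, minus strand) runs away from Cep83, a gene of the centriole's distal appendages. It had 15 significant of 21 clusters in replicate 1 and 14 of 17 in replicate 2, and 10 of its 11 shared sites were in the last of 3 exons. The highest shared value was at chr10:94675755-94675794, with 4.76 (32 IP and 2 SMInput reads) and 4.48 (31 and 5 reads). A neighbouring site, chr10:94676465-94676510, reached 5.62 in replicate 1 on a single SMInput read, and 4.17 in replicate 2 on 4.

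The next sites by shared fold change lay in first exons or in an unspliced gene. 9330171B17Rik, unspliced and antisense to the kinesin gene Kif7, had 4.46 and 5.10 at chr7:79711194-79711275 (52 and 38 IP reads). 1700009J07Rik had 4.33 and 4.87 in its first exon, at chr10:77893545-77893687 (71 and 65 IP reads). 1110020A21Rik, which starts next to the phosphatase gene Ppm1b, had 4.31 and 4.94 at chr17:84957362-84957552, also in its first exon (70 and 51 IP reads). These 3 genes had no fewer than 38 IP reads at the site in either replicate.

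The last 3 of the leading 10 genes rested on few reads. Gm26715 had 4.08 and 4.43 at chr13:66365670-66365733, with 10 IP reads against 1 SMInput read and 12 against 2. Gm7008, across from Ifrd1, had 4.01 and 4.43 at chr12:40225061-40225168, with 19 against 2 and 12 against 2. Gm26806 had 3.93 and 4.43 at chr13:66503923-66503971, with 9 against 1 and 6 against 1.

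Counted by clusters, 11 genes with a significant cluster in each replicate stood at the top, and together they held 99 (29.7%) and 112 (22.8%) of the significant lncRNA-exon clusters. Besides AI507597 and Cep83os, D130017N08Rik (chr5:143758354-143768575) had 15 of 17 and 9 of 12 significant, with 12 and 7 of them in the last exon of a spliced transcript. Wbscr25 (chr5:134987433-135001350), across from the claudin gene Cldn3, had 9 of 16 and 13 of 16, and none of the significant clusters lay in its last exon. 1700001L05Rik (chr15:83353847-83367282) had 6 of 19 and 9 of 17, with log2 fold changes up to 2.73 and 2.60.

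1700006J14Rik (chr10:120364157-120384336) lies across from Hmga2, the gene of an architectural chromatin protein. It had 6 of 14 and 8 of 13 clusters significant, all in the last exon. Its site at chr10:120382065-120382274 had log2 fold changes of 3.58 (162 IP and 23 SMInput reads) and 3.52 (159 and 50), with −log10 P of 44.6 and 79.5. By the smaller −log10 P of the replicates, only sites listed at 400 in both stood above it. 1110020A21Rik had 5 of 6 and 9 of 9 significant.

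Gm11837 (chr4:14929908-14953030), across from Necab1, had 7 of 13 and 8 of 13 significant, with the highest values 3.91 and 4.49. RefSeq annotates it as protein-coding, and all of its 26 clusters fell in exons of RefSeq coding transcripts, so its place among lncRNAs depends on the annotation. The same held for Zswim6, with 5 of 16 and 6 of 16 significant, and for Cct6a, a chaperonin subunit gene.

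Gm42418 (chr17:39846958-39848788) differed from the rest. RefSeq gives this name as a synonym of an 18S ribosomal RNA related sequence, and reads from ribosomal RNA had been removed before the genome alignment, so the clusters there hold only reads that passed that step. It had 45 and 46 clusters, of which 1 and 13 were significant, with log2 fold changes no higher than 2.10 and 2.90. Its shared site, chr17:39847554-39847555, is 2 bases wide and has −log10 P of 400 in both replicates at log2 fold changes of 2.10 and 2.38. Gm26917 (chr17:39843013-39846341), just upstream on the same strand, had 1 significant of 56 and 1 of 43 clusters, both at chr17:39845135-39845140, with 2.33 and 2.37. Its median log2 fold change was −0.71 and −0.63.

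Among the well-studied lncRNAs, 17 of 21 listed names are lncRNA genes in the annotation, and 12 of them had clusters. Of their clusters, 20 of 242 (8.26%, 5.41 to 12.4) and 36 of 213 (16.9%, 12.5 to 22.5) were significant, beside 4.92% and 13.2% of all clusters. Both intervals held the 8.94% and 19.6% of all lncRNA-exon clusters. Malat1, Gm26917 and Gm42418 held 166 and 153 of the 242 and 213 clusters. Without these 3 genes the counts were 18 of 76 (23.7%, 15.5 to 34.4) and 22 of 60 (36.7%, 25.6 to 49.3). Without Tug1 alone they were 11 of 227 (4.85%, 2.73 to 8.47) and 28 of 197 (14.2%, interval up to 19.8), so the share depended on which genes were counted. The median log2 fold change was 0.46 and 0.71 with all genes and 1.76 and 1.89 without Malat1, Gm26917 and Gm42418, beside 1.66 and 1.85 over all lncRNA-exon clusters. The genes with a significant cluster in both replicates were Tug1, Hoxd3os1, Neat1, Dleu2, Gm26917 and Gm42418. Of these, Gm42418 is the name that RefSeq gives as a synonym of an 18S ribosomal RNA related sequence, and Gm26917 lies just upstream of it.

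Tug1 (chr11:3639785-3649673), a spliced lncRNA required for male fertility in mice, had 9 of 15 and 8 of 16 clusters significant. Shared sites lay in its last exon at chr11:3642112-3642237, with 2.67 and 2.48, and at chr11:3644913-3645061, with 2.59 and 2.43. Hoxd3os1 (chr2:74703248-74716130), in the HoxD cluster across from Hoxd3 and Hoxd4, had 6 of 7 and 8 of 9. Its last-exon site at chr2:74714116-74714309 reached 3.46 (26 IP and 4 SMInput reads, −log10 P 7.53) and 3.79 (−log10 P 400). Another cluster within that site had the highest −log10 P of replicate 1, 37.5.

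Neat1 and Malat1 are both nuclear and both unspliced. Neat1 (chr19:5824708-5845478), the scaffold of paraspeckles, had 1 of 23 significant in replicate 1 and 5 of 23 in replicate 2, of which 3 rested on 5 IP reads against 1 or 2 SMInput reads. The cluster of replicate 1, chr19:5829933-5829980, overlapped none of those of replicate 2, and the deepest Neat1 clusters with known reads had log2 fold changes of 1.51 (52 IP reads) and 0.64 (43 IP reads). Malat1 (chr19:5795690-5802672), enriched in nuclear speckles, had 0 significant of 65 and 0 of 64. Its log2 fold changes ran from −0.76 to 0.98 and from −0.64 to 1.06 around medians of 0.20 and 0.32, with up to 527 and 504 IP reads in a cluster with known reads.

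Dleu2 (chr14:61602839-61682373), a host of microRNAs, had 1 of 11 and 1 of 8 significant, at chr14:61634786-61634829 (2.22) in replicate 1 and chr14:61632682-61632728 (3.26) in replicate 2. These positions do not overlap. Firre, which lies on the X chromosome, had 1 of 12 in replicate 1 and 0 of 3 in replicate 2. Meg3, Miat, Lncpint and Rmst had 3, 2, 2 and 1 clusters in replicate 1, none significant, and 1 in all in replicate 2, in Lncpint.

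Of the 7 imprinted lncRNAs on the list, H19, Nespas, Peg13, Rian and Mirg had clusters. Their clusters were significant in 5 of 23 cases (21.7%, 9.66 to 41.9) and 3 of 11 (27.3%, 9.75 to 56.6), beside 4.92% and 13.2% of all clusters, and the interval of replicate 2 held the latter. All lncRNA-exon clusters had 8.94%, just below the interval of replicate 1, and 19.6%, within that of replicate 2. H19 (chr7:142575529-142578143), transcribed from the maternal allele next to Igf2 and long known as an RNA bound by IGF2BP proteins, was the only one of the 7 with a significant cluster in both replicates. It had 3 of 7 and 1 of 4.

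The shared H19 site, chr7:142576412-142576487, lies in the third of 5 exons. There the log2 fold change was 2.93 in replicate 1 (9 IP and 2 SMInput reads, −log10 P 2.49) and 4.55 in replicate 2 (13 and 2 reads, −log10 P 6.79). Nespas, antisense to Gnas, had 2 of 4 and 0 of 5, and Peg13 had 0 of 7 and 2 of 2. Rian and Mirg, from the maternally expressed locus that also holds Meg3, had 4 clusters and 1 in replicate 1, none significant.

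Of the X inactivation genes Xist, Tsix, Ftx and Jpx, Xist had 4 clusters in replicate 1 and none in replicate 2, and the other 3 had none. The Xist clusters had log2 fold changes of 2.35 to 2.76 on 3 or 4 IP reads against 1 SMInput read. None was significant (0 of 4, Wilson upper limit 49%), so enrichment was not detectable at this depth.

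Hosts of small RNAs had too few clusters to set them apart from the 4.92% and 13.2% of all clusters. Of 16 annotated small nucleolar RNA hosts, 8 had clusters (Gas5, Snhg1, Snhg3, Snhg5, Snhg12, Snhg15, Snhg17 and Snhg20), with 0 of 20 significant in replicate 1 (upper limit 16.1%) and 2 of 25 in replicate 2 (8.0%, 2.22 to 25.0). Both were in Snhg3, where the highest value was 2.39 (90 IP and 62 SMInput reads, −log10 P 27.9). In replicate 1 the highest Snhg3 value was 1.92, just under the threshold. The median log2 fold change over these hosts was −0.04 and −0.01, and Snhg15 had only negative values, −2.96 in replicate 1 and −1.68 to −1.34 in replicate 2.

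Of 10 microRNA hosts with names of the form Mir…hg, 5 had clusters, and 0 of 16 (upper limit 19.4%) and 0 of 7 (upper limit 35.4%) were significant. Mir17hg had 8 and 6 of these, with log2 fold changes up to 2.35, on 3 IP reads and 1 SMInput read, and 1.5.

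Genes named as testis-derived RIKEN clones and genes named for the coding gene on the opposite strand are the largest lists. Of 1107 such clone genes, 241 and 194 had a cluster. Of their clusters, 96 of 729 (13.2%, 10.9 to 15.8) and 160 of 533 (interval 26.3 to 34.0%) were significant, beside 4.92% and 13.2% of all clusters. Both intervals lay above the 8.94% and 19.6% of all lncRNA-exon clusters. In 33 of the clone genes both replicates had a significant cluster. Genes whose names end in os, or in os and a digit, had 36 of 179 (20.1%, 14.9 to 26.6) and 44 of 125 (35.2%, 27.4 to 43.9) significant, beside the same 4.92% and 13.2%. However, Cep83os and Hoxd3os1 held 21 of the 36 and 22 of the 44. Without this pair the counts were 15 of 151 (9.93%, 6.11 to 15.7) and 22 of 99 (22.2%, 15.2 to 31.4), with the 8.94% and 19.6% of all lncRNA-exon clusters inside the intervals. The 6 with significant clusters in both replicates were Cdk19os, Cep112os1, Cep83os, Hoxd3os1, Itpr3os and Proscos.

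Cdk19os (chr10:40348508-40350103) and Itpr3os (chr17:27099658-27101440), across from a cyclin-dependent kinase gene and an inositol trisphosphate receptor gene, had every cluster significant. The counts were 3 and 4 for Cdk19os, with log2 fold changes of 2.01 to 2.85, and 5 and 5 for Itpr3os, with 2.12 to 4.08. Proscos (chr8:27042377-27043042) had 1 of 1 and 1 of 2, with 2.79 and 2.77 at its shared site. Cep112os1 rested on few reads, with a highest value of 3.57 on 7 IP reads and 1 SMInput read in replicate 1.

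The sequence under the clusters was examined in windows of 100 bases around each centre, on the strand of the cluster. The 824 windows of significant lncRNA-exon clusters held GAACA in 9.22% (7.43 to 11.4), beside 9.21% over all 553588 clusters. ACACA, a CA-rich stretch, was in 9.95% (8.09 to 12.2) beside 10.1%, and GGAC, the core of the m6A consensus, in 28.0% (25.1 to 31.2) beside 25.5%. For these 3 motifs the share over all clusters lay within the interval of the pooled windows. In replicate 1 alone GGAC was in 30.3% (25.6 to 35.5), just above the 25.3% of all clusters, and in replicate 2 in 26.5% (22.8 to 30.6) beside 25.6%.

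Over the pooled windows the other 2 of the 5 motifs searched stood above that share. AAACC was in 10.7% (8.75 to 13.0) beside 7.51%, and CATT, a core reported for IGF2BP proteins, in 38.3% (35.1 to 41.7) beside 34.6%. Neither held throughout. In replicate 1 alone AAACC was in 9.91% (7.14 to 13.6) beside 7.68% and CATT in 37.2% (32.2 to 42.5) beside 35.2%, while in replicate 2 AAACC was in 11.2% (8.71 to 14.3) beside 7.24% and CATT in 39.1% (34.9 to 43.5) beside 33.7%. With 1 window for each of 562 joined sites, AAACC was in 8.72% (6.66 to 11.3) and CATT in 38.3% (34.3 to 42.3), and both intervals held the share over all clusters. Among the other lncRNA-exon clusters these shares were 8.13% and 32.2%. All significant clusters of the series held CATT in 36.9%, within the interval of the pooled lncRNA windows, and AAACC in 8.31%, below that interval but within the interval of the joined sites. Only the strand of the cluster was searched, the motifs can share letters at their ends, and a match describes the letters of a window, not a site.

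Base composition was compared next. The windows of significant lncRNA-exon clusters were 55.0% ± 8.13 (SD, 333 windows) C and T in replicate 1 and 54.0% ± 8.18 (491 windows) in replicate 2, while the other lncRNA-exon clusters had 51.7% ± 8.42 and 52.8% ± 9.20. All significant clusters had 53.4% and 53.6%, and significant clusters of protein-coding exons 53.8% and 54.3%. Windows around the middle of the 108 shared sites had a median of 57% pyrimidine, with 87 of them above 50%. Over all clusters 56.2% of windows were above 50%, and over all significant clusters 65.4%. Over all significant lncRNA-exon clusters it was 66.9% (551 of 824), near the share of all significant clusters. The leading sites of all 10 genes with the highest fold changes were above 50% along their own length.

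Sequences of 5 shared sites named for their fold change or P value are shown, chosen after their composition was seen as examples above 60% pyrimidine, and not as typical of all sites. They are from GRCm38 (mm10), written 5′ to 3′ on the strand of the RNA, with CATT in capitals. 1700104B16Rik is chr8:33730558-33730778, minus strand, 71.0% pyrimidine. 4921534H16Rik is chr9:98004995-98005214, plus strand, 64.5% pyrimidine. For AI507597 the longest single cluster in the site is given, chr4:141615429-141615525, plus strand, 63.9% pyrimidine. 1700009J07Rik is chr10:77893545-77893687, plus strand, 62.2% pyrimidine, and 1700006J14Rik is chr10:120382065-120382274, plus strand, 63.8% pyrimidine.
1700104B16Rik: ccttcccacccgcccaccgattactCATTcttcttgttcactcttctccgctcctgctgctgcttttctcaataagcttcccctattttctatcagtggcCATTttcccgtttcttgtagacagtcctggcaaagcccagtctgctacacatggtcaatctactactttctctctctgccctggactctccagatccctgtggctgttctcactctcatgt
4921534H16Rik: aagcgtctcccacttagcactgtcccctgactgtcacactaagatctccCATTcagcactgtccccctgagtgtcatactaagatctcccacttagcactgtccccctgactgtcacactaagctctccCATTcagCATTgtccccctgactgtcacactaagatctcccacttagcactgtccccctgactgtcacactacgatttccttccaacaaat
AI507597: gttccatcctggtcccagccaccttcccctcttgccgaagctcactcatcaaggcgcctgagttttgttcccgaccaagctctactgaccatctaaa
1700009J07Rik: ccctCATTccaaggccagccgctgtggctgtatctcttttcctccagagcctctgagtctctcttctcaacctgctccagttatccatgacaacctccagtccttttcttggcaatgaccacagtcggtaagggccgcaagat
1700006J14Rik: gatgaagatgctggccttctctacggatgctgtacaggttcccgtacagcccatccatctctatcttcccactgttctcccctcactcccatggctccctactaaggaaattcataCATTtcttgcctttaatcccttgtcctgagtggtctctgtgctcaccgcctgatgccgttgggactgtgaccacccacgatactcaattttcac

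The site of 4921534H16Rik is a tandem repeat. Shifted by 40 bases against itself, 77.2% of its bases matched, whereas the best shift gave between 33.9% and 50% at the other sites examined.

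Sites in H19, Hoxd3os1 and Tug1, and in 9330171B17Rik, are shown for their range of composition. The H19 site (chr7:142576412-142576487, minus strand) was 67.1% pyrimidine with no CATT. Hoxd3os1 (chr2:74714116-74714309, minus strand) was 58.2% pyrimidine and rich in T (38.1%), also without CATT. The Tug1 site (chr11:3642112-3642237, minus strand) was 43.7% pyrimidine with A as its most frequent base (34.1%), and it held CATT once. The 9330171B17Rik site (chr7:79711194-79711275, plus strand) was 56.1% pyrimidine and held AAACC once.
H19: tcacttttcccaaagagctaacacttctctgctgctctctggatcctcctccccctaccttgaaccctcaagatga
Hoxd3os1: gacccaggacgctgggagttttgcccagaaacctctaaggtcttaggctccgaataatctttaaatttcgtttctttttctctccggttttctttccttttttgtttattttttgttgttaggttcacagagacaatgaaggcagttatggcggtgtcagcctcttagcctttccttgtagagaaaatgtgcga
Tug1: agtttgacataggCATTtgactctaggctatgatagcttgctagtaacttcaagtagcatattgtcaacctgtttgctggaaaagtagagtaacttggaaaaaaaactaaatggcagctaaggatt
9330171B17Rik: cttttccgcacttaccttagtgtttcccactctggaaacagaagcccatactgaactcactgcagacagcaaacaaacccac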

How the data were processed

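eCLIP-seq of IGF2BP3 was analysed from 2 cluster tables, 1 per replicate, made from 4 libraries. The authors removed adapters with cutadapt and ribosomal RNA reads with Bowtie2, aligned to mm10 with STAR, collapsed duplicates by molecular identifier and called clusters from read 2 with Clipper. Per cluster, the authors deposited a −log10 P (0 to 400) and a log2 ratio of IP over SMInput reads of the same replicate. Fold changes, P values and shares of significant clusters were kept per replicate. Sequence windows of both replicates were pooled for the motif shares, which are also given per replicate, and for counts of pyrimidine-rich windows. Joined sites and the ranking of genes by significant clusters combined both replicates.

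Members were found with GENCODE M21 basic exons. The members and lists were chosen with earlier results of these data known. Named genes were (a) the 10 with the highest smaller log2 fold change of the replicates at a shared site; (b) the 10 with the most significant clusters over both replicates, at least 1 in each, which ties made 11; (c) the 5 shared sites with the highest smaller −log10 P; and (d) genes of fixed lists (well-studied, X inactivation, imprinted, small nucleolar RNA host, microRNA host, RIKEN clone and os names) that had a cluster. Shares of chromosomes were looked at after the values were seen.

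Read numbers are not listed. They were worked out as the whole numbers of reads, and library totals, that give both listed values of a cluster, with a single solution for 98.9% and 99.1% of clusters listed between 0 and 400. Overlap and read recovery were tested on simulated data. Intervals are 95% Wilson intervals. Alternatives changed the thresholds, overlap, member rule, depth and motif window. Clusters are not replicates, so no test was run across them. Python 3.11.15, pandas 2.3.3, numpy 2.4.6, SciPy 1.17.1, pysam 0.24.0, intervaltree 3.1.0 and SAMtools 1.23.1 were used.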

Additional observations from a re-analysis of the deposited data

How the results depend on the processing

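Of 131 alternative values, 75 stayed within 1.5 times the count or within the interval of the share, and 56 moved. No alternative can reverse a count or share. With both thresholds at 3, significant clusters numbered 112 in replicate 1 (3.01%, beside 1.18% of all clusters) and 130 in replicate 2 (5.20%, beside 2.42%), with 38 shared sites and 30 genes in both replicates. At a log2 fold change of 3 and −log10 P of 5 these were 81 (2.17%, beside 0.636%), 91 (3.64%, beside 1.36%), 30 sites and 21 genes. A log2 fold change of 1 gave 11.8% (all clusters 7.24%) and 25.2% (18.4%). At 10 IP reads or more, over clusters with known reads and so without those listed at 0 or 400, the shares were 42.4% (25.1%) and 44.4% (27.6%), with 231 significant clusters in replicate 2. Leaving out centres inside coding spans gave 12.4% and 24.2%, those within 5 kb after a coding gene too 12.7% and 24.3%, TEC and processed transcripts 12.4% and 24.7%, and repeat-rich clusters 21.6% in replicate 2. Without the 11 genes with the most significant clusters, an alternative chosen after seeing the data, the shares were 6.63% and 16.3%, with 66 shared sites. Leaving out Gm26917 and Gm42418, or RefSeq coding genes, also chosen after seeing the data, moved none of the counts and shares. Groups were also taken without their leading genes after seeing the data. The os names gave 13.3% and 27.8% without Cep83os, lincRNAs 9.46% and 21% without D130017N08Rik, RIKEN clones 12.7% and 29.3% without 1700001L05Rik, last exons 15.1% and 30.7% and the 5′ stretch of transcripts 10.3% and 20.9% without Cep83os; the others are given with the results. With 1 replicate left out, sites within the other ranged from 275 to 414 and genes from 151 to 248, since no overlap was then required. Windows of 50 bases, and the cluster itself, held AAACC in 4.73% and 4.49%, ACACA in 4.37% and 5.46%, CATT in 18.7% and 23.1%, GAACA in 4.13% and 5.22%, and GGAC in 16.3% and 18.1%. With 1 window per joined site AAACC was in 8.72%, no longer above the share over all clusters, and CATT in 38.3% likewise. The cause was not tested. No paired analysis was possible because no result comes from a test across samples: each listed cluster value is by itself an IP to SMInput comparison within 1 replicate. Low depth limits the counts: 50.1% of the significant clusters with known reads in replicate 2 had under 10 IP reads.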
